A study of Rattus norvegicus with 15 samples.

Results

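The 10 genes described here encode the proteins that carry long-chain fatty acids into a cell, bind them in the cytosol and activate them: the fatty acid binding proteins Fabp3, Fabp4 and Fabp5, the membrane receptor Cd36, the fatty acid transport proteins Slc27a1 and Slc27a2, and the long-chain acyl-CoA synthetases Acsl1, Acsl3, Acsl4 and Acsl5. They were measured in epididymal fat, an abdominal depot attached to the epididymis, of male Long-Evans rats killed in the fed state at 26 weeks of age. The obese group held 7 rats kept from weaning on a high fat, high sucrose diet, and the lean group held 8 rats on regular chow. Diet and body fat changed together, so the 2 cannot be told apart. Members were taken as the probe sets whose platform annotation named exactly 1 gene, that gene being on the list. All 10 genes had such a probe set, 13 probe sets in all, of 31042 probe sets and 14217 genes in the table. A gene's value is that of its brightest probe set.

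Fatty acids reach the fat cell from lipoprotein triglyceride or from albumin. Cd36 binds them at the plasma membrane. Slc27a proteins take them up and also have acyl-CoA synthetase activity, and Acsl enzymes join them to coenzyme A, which holds them in the cell for storage as triglyceride, for oxidation or for membrane lipids. Binding proteins shuttle the free acid between these sites. Fabp4 (aP2) is the abundant form of fat cells and is also made by macrophages and capillary endothelium. Fabp5, the epidermal form, is made by fat cells and strongly by macrophages, and Fabp3, the heart form, by cardiac and skeletal muscle and by brown fat. Many of these genes are targets of the nuclear receptors PPARG and PPARA.

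A pair of arrays labelled as different groups, obese rat 1 and lean rat 7, was almost identical. Their log2 signals correlated at 0.986, against 0.960 for the next closest of the other 104 pairs of arrays, and the SD of their log2 differences was 0.22, against 0.37 to 0.61 for the other pairs. Whether either label is wrong is not known, so the members' differences are given with all 15 arrays and without this pair, which leaves 6 obese and 7 lean rats. The choice to leave out the pair was made with results of these data known. Where a value names no set of arrays, it is from these 13. Fat cell markers were bright: all 15 of the adipocyte markers with a probe set passed the filter on low signals, with summed signals between 467888 and 807944, while the 6 measured epididymis and testis markers all lay below it. The genes were chosen by function with the measured obese against lean differences in view, so these differences count as values that chose the members. The differences and adjusted p-values below are a description, not independent evidence. Labels give 1 array per rat and no batch.

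Without the pair, obese fat had higher signals of Fabp5, Fabp3 and Slc27a1. Fabp4, Slc27a2, Acsl1, Acsl4 and Acsl5 differed by less than their standard errors. With 13 arrays 3 of the 10 members passed an adjusted p of 0.05 in limma, which fits each probe set and pools the spread across all of them, against 1.01% of the 18625 probe sets tested, 0.725% higher and 0.29% lower in obese rats. Of the probe sets that passed, 71.4% were higher in obese rats, a share that was 91.8% under median centring. With all 15 arrays 0 of 10 members passed, as did 0% of probe sets, while 4 members and 15.6% of probe sets had an unadjusted limma p under 0.05. The same 4, Fabp3, Fabp5, Slc27a1 and Cd36, had an unadjusted p under 0.05 with 13 arrays, where 17.8% of probe sets did. The median log2 difference of the 10 members was 0.14 with 13 arrays and 0.13 with 15, beside -0.04 over all probe sets in both. Of the 10, 8 had a positive difference in either set, beside 42.2% of probe sets with 13 arrays and 42.5% with 15. Since these values helped to choose the list, no more is read from the counts.

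**Figure D1:**
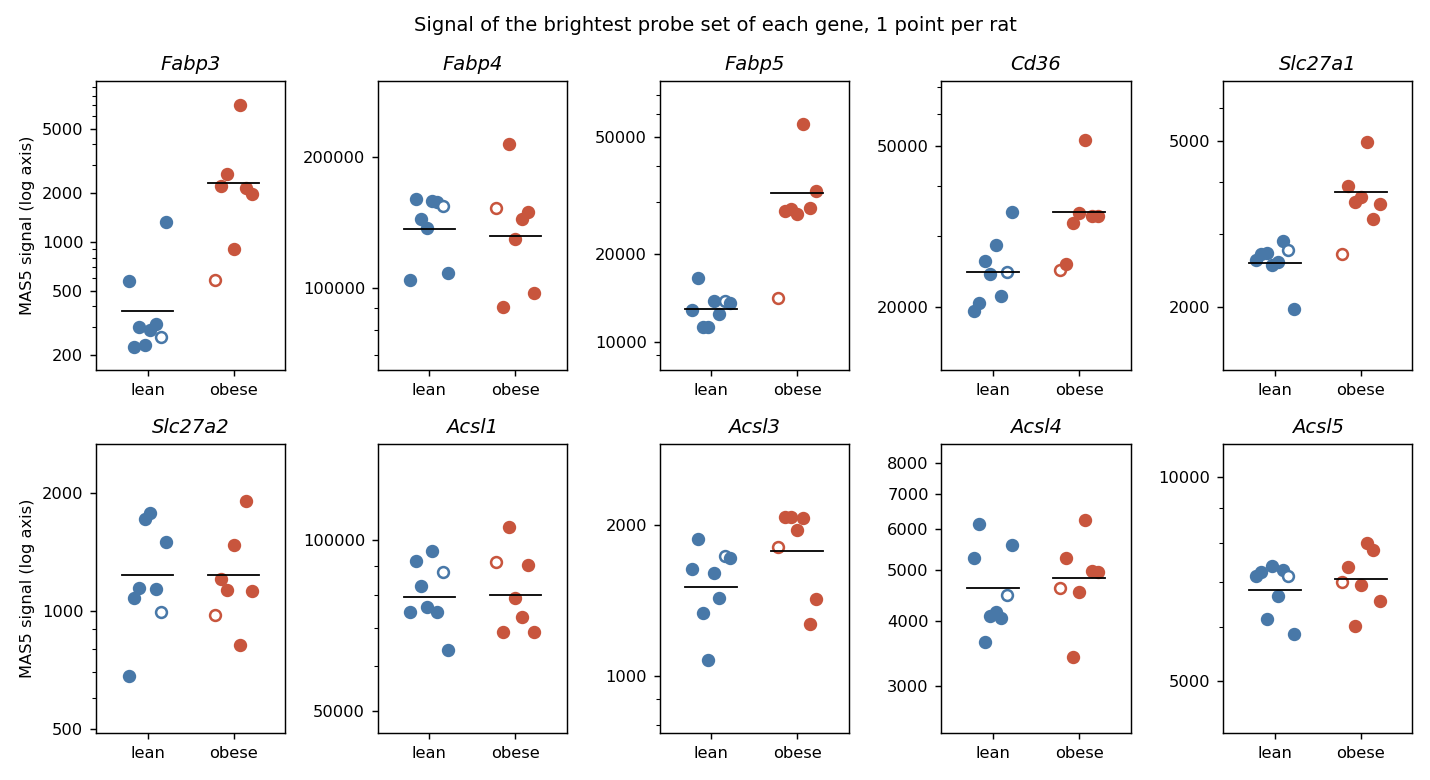
MAS5 signal (log axis) of the brightest probe set of each of the 10 genes, with 1 point per lean or obese rat; open circles are lean rat 7 and obese rat 1, and lines are geometric means of the other rats. All 6 filled obese points of Fabp5 and Slc27a1 lie above every lean point, while the groups overlap for the other 8 genes.

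Among the binding proteins, Fabp5 (Entrez gene 140868) had the largest difference relative to its standard error. Its signal ran from 27403.9 to 55602.6, with a median of 28586.5, in the 6 obese rats and from 11203.4 to 16481.7, with a median of 12837.4, in the 7 lean rats. The lowest obese rat thus lay above the highest lean rat. Groups were this separate, obese above lean, for 2 of the 10 members and 0.918% of probe sets, and in either direction for 1.45%. The log2 difference was 1.31 ± 0.16 (SE), a 2.48-fold higher level (limma adjusted p = 0.00326). Obese rat 6 had the highest signal, and the other 5 lay between 27403.9 and 32745.5. Obese rat 1, at 14109.3, and lean rat 7, at 13779.9, both lay within the lean range, and with all 15 arrays the difference was 1.13 ± 0.20 (SE; limma adjusted p = 0.0948). Fabp5 passed in each of the 13 fits that left out 1 more rat, at 1.15 to 1.37.

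Fabp3 (79131) rose most in fold but was dim. Its signal ran from 901.2 to 7028.0, with a median of 2189.6, in the 6 obese rats and from 225.6 to 1320.6, with a median of 296.1, in the 7 lean rats. Of the obese rats, 5 lay above all lean rats, and rat 5, the lowest, lay below lean rat 8, the highest. The log2 difference was 2.38 ± 0.41 (SE), or 5.20-fold (limma adjusted p = 0.0181), and with all 15 arrays it was 2.17 ± 0.42 (SE; limma adjusted p = 0.0948). The filter kept probe sets whose mean log2 signal exceeded 9.25, a signal of 530.6. Fabp3 lay above that level on all 7 obese arrays and on 2 of 8 lean arrays, so it entered the test through the obese group. The additive constant of 79.9 in the log makes the fold of so dim a gene an understatement.

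Fabp4 (79451) was the brightest member, at the 99.98th percentile of probe sets on the median array. It ran from 90543.1 to 214195.7, with a median of 136770, in the 6 obese rats and from 104424.3 to 160488.2, with a median of 144597.7, in the 7 lean rats. The obese range enclosed the lean range. The log2 difference was -0.05 ± 0.19 (SE), with a 95% interval of -0.45 to 0.34, and with all 15 arrays it was -0.05 ± 0.17. It turned positive under median centring and quantile normalization, to 0.06 and 0.09 with 13 arrays.

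**Figure D2:**
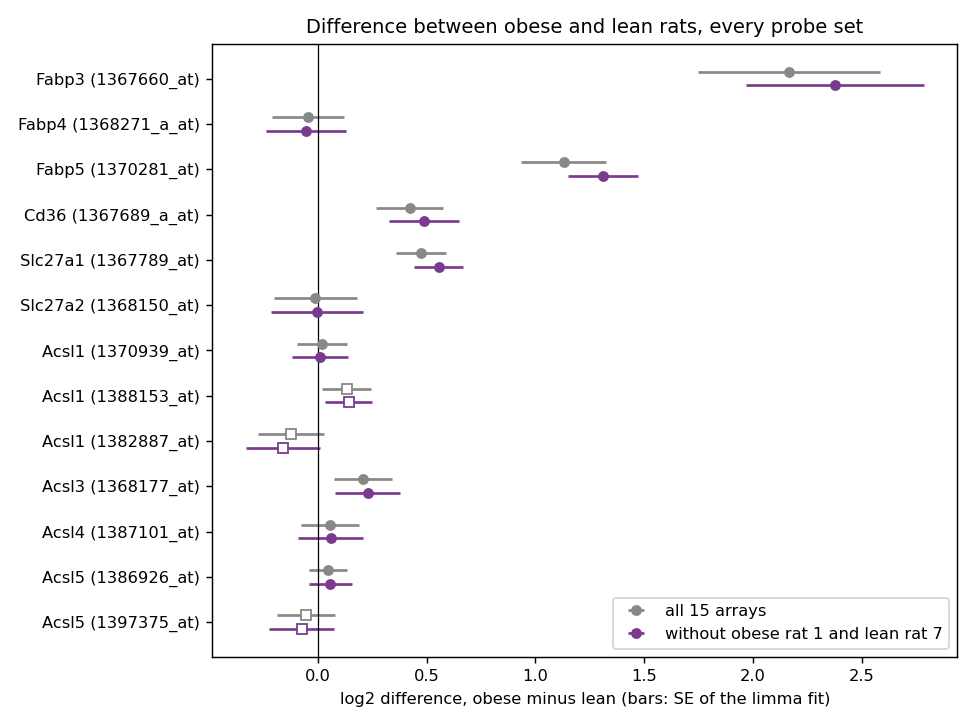
Log2 difference between obese and lean rats (x axis, bars are the SE of the limma fit) for each of the 13 probe sets, with all 15 arrays in grey and without obese rat 1 and lean rat 7 in purple; circles are brightest probe sets and squares the others. Fabp3 and Fabp5 lie at 2.38 and 1.31 without the pair, and every Acsl probe set lies between -0.16 and 0.23.

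Log2 ratios of binding protein signals within a rat restate the differences above and are no further evidence. The log2 ratio of Fabp5 to Fabp4 signal was -2.03 ± 0.58 (SD) over 6 obese rats and -3.39 ± 0.295 (SD) over 7 lean rats, a difference of 1.36 ± 0.25 (SE) with no overlap between groups. That of Fabp3 to Fabp4 was -5.77 ± 0.93 (SD) and -8.20 ± 1.02 (SD), a difference of 2.43 ± 0.54 (SE) with overlap. Fabp3 to Fabp5 differed by 1.07 ± 0.405 (SE), also with overlap. With all 15 arrays the differences were 1.175, 2.21 and 1.04, and the groups overlapped for each of these ratios. For Fabp5 to Fabp4, obese rat 1, at -3.43, then lay within the lean range. Probe sets bind with different strength, so the sign of a ratio does not order the transcripts and only its difference between groups is read. These ratios, 11 pairs in all, were not tested because the genes were chosen with the comparison known.

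**Figure D3:**
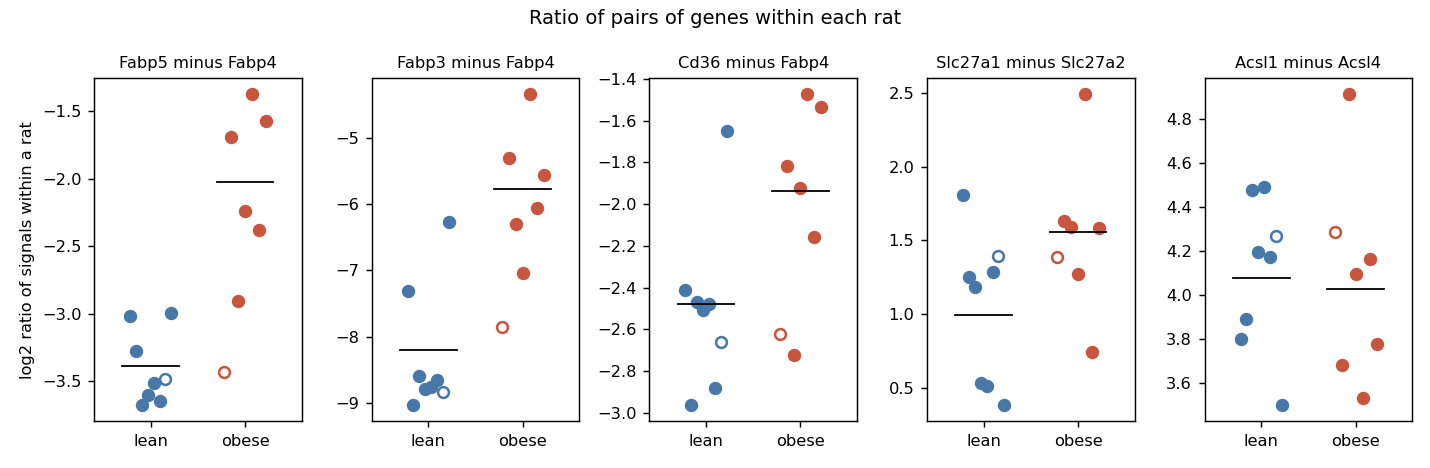
Log2 ratio of the signals of 2 genes within each rat (y axis), lean against obese, for 5 of the 11 pairs; open circles are lean rat 7 and obese rat 1, and lines are means of the other rats. Fabp5 relative to Fabp4 runs from -2.91 to -1.37 in the 6 other obese rats and from -3.68 to -2.99 in the 7 other lean rats, whereas Acsl1 relative to Acsl4 overlaps throughout.

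In the rat annotation Fabp4 and Fabp5 lie in 1 cluster with 2 protein-coding genes between them, Fabp9, a testis form, and Pmp2, a myelin form. Fabp9 stayed below the filter, with means of 139.2 in 6 obese and 163.6 in 7 lean rats. The pair from 1 cluster, Fabp4 and Fabp5, thus differed in change by 1.36 on the log2 scale. The annotation also lists pseudogenes of Fabp5, and the probe set cannot tell their transcripts apart from those of the gene.

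At the membrane, Cd36 (29184) was higher in obese rats by less than Fabp5 and did not pass. Its signal ran from 25613.0 to 51807.8, with a median of 33557.2, in the 6 obese rats and from 19563.5 to 34451.2, with a median of 24137.6, in the 7 lean rats. All 6 obese rats lay above the lean median and only rat 6 above all lean rats, since lean rat 8 stood at 34451.2. The log2 difference was 0.49 ± 0.16 (SE; limma adjusted p = 0.141), and with all 15 arrays 0.42 ± 0.15 (SE; limma adjusted p = 0.205). A further probe set naming both Cd36 and its neighbouring copy Cd36l1 was left out, and the one used may bind both.

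Of the transport proteins, Slc27a1 was higher in obese rats without the pair, and Slc27a2 differed by less than its standard error. Slc27a1 (94172), also called FATP1, the insulin-responsive transporter of fat and muscle, ran from 3252.3 to 4974.7, with a median of 3625.8, in the 6 obese rats and from 1979.9 to 2884.1, with a median of 2600.9, in the 7 lean rats, without overlap. The log2 difference was 0.55 ± 0.11 (SE; limma adjusted p = 0.037), or 1.47-fold. With all 15 arrays it was 0.47 ± 0.11 (SE; limma adjusted p = 0.105), with obese rat 1, at 2684.9, inside the lean range. The call rests on the full set of 13: in 12 of 13 fits that left out 1 more rat it was lost, at adjusted p up to 0.0744 and log2 differences from 0.48 to 0.60. It held only without obese rat 3.

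Slc27a2 (65192), or FATP2, a form known best from liver and kidney, ran from 819.0 to 1905.5 in the 6 obese rats and from 685.4 to 1773.9 in the 7 lean rats, with medians of 1168.7 and 1145.9. The ranges nearly coincided. Its log2 difference was -0.0040 ± 0.21 (SE; 95% interval -0.45 to 0.44), and -0.01 ± 0.19 with all 15 arrays. With 13 arrays it turned to 0.11 under median centring and 0.06 under quantile normalization. The log2 ratio of Slc27a1 to Slc27a2 was higher in obese rats by 0.56 ± 0.30 (SE), or 0.485 ± 0.27 with all 15 arrays, with the groups overlapping in both.

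None of the acyl-CoA synthetases passed in either set of arrays. Acsl1 (25288), the main form of fat cells, had a mean signal of 80803.2 ± 14487.3 (SD) over 6 obese rats and 79882.0 ± 10940.7 (SD) over 7 lean rats, giving a log2 difference of 0.01 ± 0.13 (SE; 95% interval -0.26 to 0.28). A second Acsl1 probe set, nearly as bright, gave 0.14 ± 0.11, and another, below the filter with signals from 234.3 to 566.3, gave -0.16 ± 0.17 in the fit without a filter. The Acsl1 probe sets thus differed in sign. They gave 0.02 ± 0.11, 0.13 ± 0.11 and -0.12 ± 0.15 with all 15 arrays. Acsl3 (114024), a form linked to lipid droplets and the endoplasmic reticulum, had the largest difference of the family, 0.23 ± 0.15 (SE; 95% interval -0.09 to 0.55), or 0.21 ± 0.13 with all 15 arrays. Its signals ran from 1271.3 to 2079.7 in the 6 obese and from 1077.7 to 1878.9 in the 7 lean rats; 4 obese rats lay above all lean rats, and obese rats 7 and 8 lay at 1271.3 and 1424.1.

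Acsl4 (113976), which prefers arachidonic acid, ran from 3413.0 to 6231.4 in the 6 obese and from 3645.6 to 6111.3 in the 7 lean rats, a log2 difference of 0.06 ± 0.15 (SE; 95% interval -0.26 to 0.38). Acsl5 (94340), a mitochondrial and endoplasmic reticulum form, ran from 6030.2 to 8002.4 and from 5858.8 to 7381.4, a log2 difference of 0.06 ± 0.10 (SE; 95% interval -0.15 to 0.27). Its second probe set gave -0.07 ± 0.15. With all 15 arrays Acsl4 gave 0.06 ± 0.13 and the Acsl5 probe sets 0.05 ± 0.09 and -0.06 ± 0.13. The limma adjusted p of the 4 genes ran from 0.442 for Acsl3 to 0.98 for Acsl1 with 13 arrays. Over the 6 pairs within the family, the change in log2 ratio between groups ran from -0.22 for Acsl1 to Acsl3 to 0.17 for Acsl3 to Acsl5, with all groups overlapping. In lean rats the signals stood in the order Fabp4, Acsl1, Cd36, Fabp5, Acsl5, Acsl4, Slc27a1, Acsl3, Slc27a2 and Fabp3. The ranges of Cd36 and Fabp5 did not meet, whereas those of Acsl5 and Acsl4, of Acsl3 and Slc27a2 and of Slc27a2 and Fabp3 overlapped. These are levels of probe signal and not of transcript.

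For 8 of the 10 genes RefSeq's GRCr8 table gave a promoter; Fabp4 and Fabp5 did not match. The 250 bases before the start of Fabp3, Slc27a1 and Slc27a2 are shown because Fabp3 and Slc27a1 rose and Slc27a2, of the same family as Slc27a1, did not pass. Capitals mark AGGTCA, the half-site of nuclear receptors such as PPARs, and CCAAT, each on either strand.
Fabp3, GRCr8 chr5:147935875-147936124, plus strand: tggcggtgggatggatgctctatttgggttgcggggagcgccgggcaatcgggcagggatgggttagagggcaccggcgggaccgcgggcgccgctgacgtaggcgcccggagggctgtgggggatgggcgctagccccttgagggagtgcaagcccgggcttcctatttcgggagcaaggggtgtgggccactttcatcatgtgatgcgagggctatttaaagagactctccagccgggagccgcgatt
Slc27a1, GRCr8 chr16:18312717-18312966, plus strand: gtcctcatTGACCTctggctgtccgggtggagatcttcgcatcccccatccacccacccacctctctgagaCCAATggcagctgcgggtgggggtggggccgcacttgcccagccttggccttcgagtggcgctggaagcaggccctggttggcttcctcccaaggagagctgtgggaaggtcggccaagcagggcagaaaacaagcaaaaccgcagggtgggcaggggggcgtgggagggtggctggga
Slc27a2, GRCr8 chr3:134257851-134258100, plus strand: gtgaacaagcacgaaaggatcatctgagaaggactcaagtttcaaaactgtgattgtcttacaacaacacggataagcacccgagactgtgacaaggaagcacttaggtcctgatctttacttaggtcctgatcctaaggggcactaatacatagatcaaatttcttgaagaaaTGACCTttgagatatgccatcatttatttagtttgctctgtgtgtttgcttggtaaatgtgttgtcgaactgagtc
Both transporter genes held 1 AGGTCA, on the opposite strand, starting 242 bases before the start in Slc27a1 and 76 before it in Slc27a2. Of all 33469 promoters of this length, 14.1% held AGGTCA, 34% CCAAT and 12.9% TATAAA, each searched on both strands; none of these motifs contains another. Among the 8 members, 2 held AGGTCA, 3 CCAAT (Slc27a1, Acsl1 and Acsl3) and 2 TATAAA (Cd36 and Acsl5). Fabp3 held none of these letters in this window. The promoters of Fabp3 and Slc27a1 were each 65.6% G and C, and that of Slc27a2 40.4%, beside a median of 51.2%.

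Differences between rats of the same group do not use the obese against lean contrast. After each group's mean was removed over the 13 rats, Fabp4 and Acsl1 rose and fell together, with Pearson's r of 0.84 and Spearman's rho of 0.82. The correlation was 0.85 with all 15 arrays, from 0.75 to 0.89 when 1 rat was left out, and 0.74 without obese rat 3 and lean rat 5, the rats farthest from the median of Acsl1. It was 0.91 within the 6 obese and 0.74 within the 7 lean rats. Both also followed the mean of the 15 adipocyte markers, with r of 0.744 for Fabp4, or 0.476 without obese rats 2 and 3, and 0.845 for Acsl1, or 0.737 without them. Fabp4 also correlated with the Gapdh 3 prime to 5 prime ratio, a measure of RNA integrity, at 0.50. That was 0.247 without lean rat 8 and obese rat 8. With the striated muscle markers Fabp4 had 0.457, or 0.077 without obese rat 3 and -0.168 without that rat and lean rat 8. Acsl1 correlated with the muscle markers at 0.625, or 0.391 without obese rat 3 and 0.133 without that rat and lean rat 8. Its correlation with the Gapdh ratio was 0.373, or -0.055 without lean rat 8 and obese rat 8. The part of these in the correlation of Fabp4 with Acsl1 was not tested. These correlations share arrays, scaling and the high end of the signal range, and no test was made of them.

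**Figure D4:**
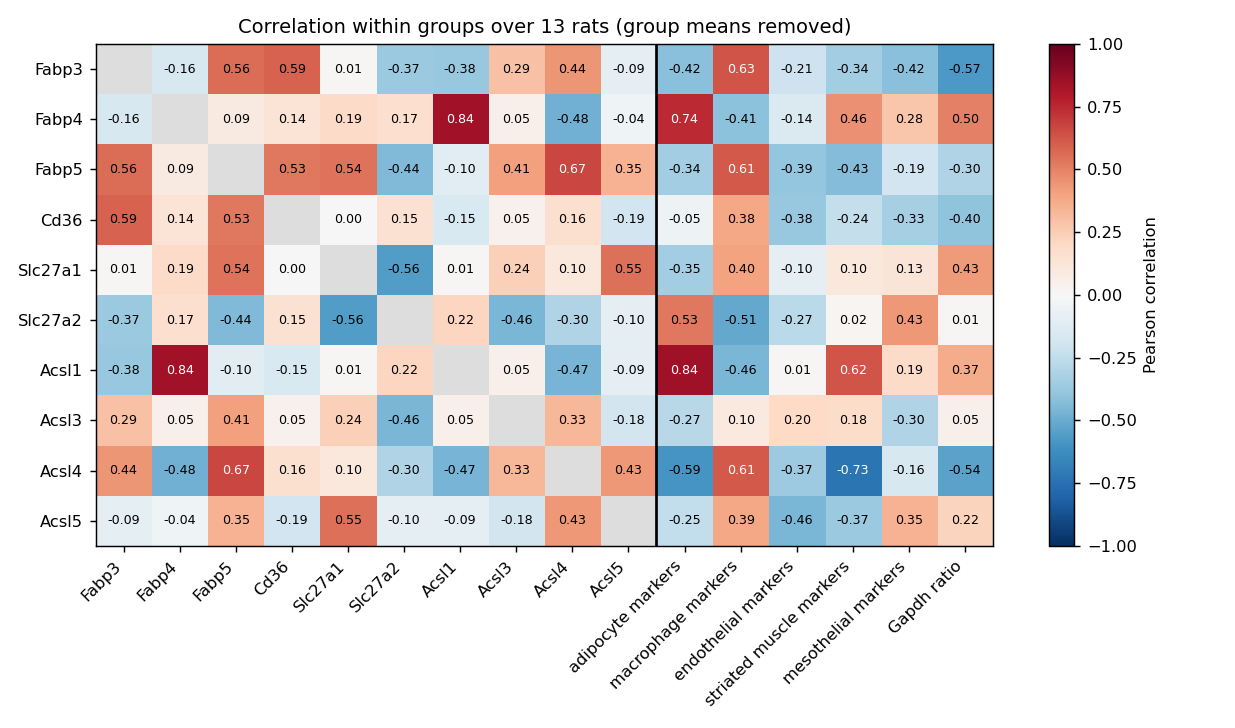
Pearson correlation over 13 rats, after removing group means, of each of the 10 genes (rows) with the others and with the means of 5 marker lists and the Gapdh 3 prime to 5 prime ratio (columns right of the line). Fabp4 and Acsl1 reach 0.84 with each other. Both correlate positively with the adipocyte markers, and negatively with the macrophage markers, at -0.413 and -0.455.

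Fabp5 did not follow Fabp4 within groups, with r of 0.09. Its highest correlation among members was with Acsl4, at 0.665 over 13 rats, from 0.60 to 0.73 with 1 rat left out, but at 0.49 with all 15 arrays. Its correlations with Fabp3, Cd36 and Slc27a1, at 0.56, 0.53 and 0.54, rested on obese rat 6: without that rat they were 0.097, -0.045 and -0.13. The transporters Slc27a1 and Slc27a2 ran in opposite directions, with r of -0.56 (-0.34 with all 15 arrays, and -0.67 to -0.40 with 1 rat left out). Over the 45 pairs of members the median correlation was 0.05.

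**Figure D5:**
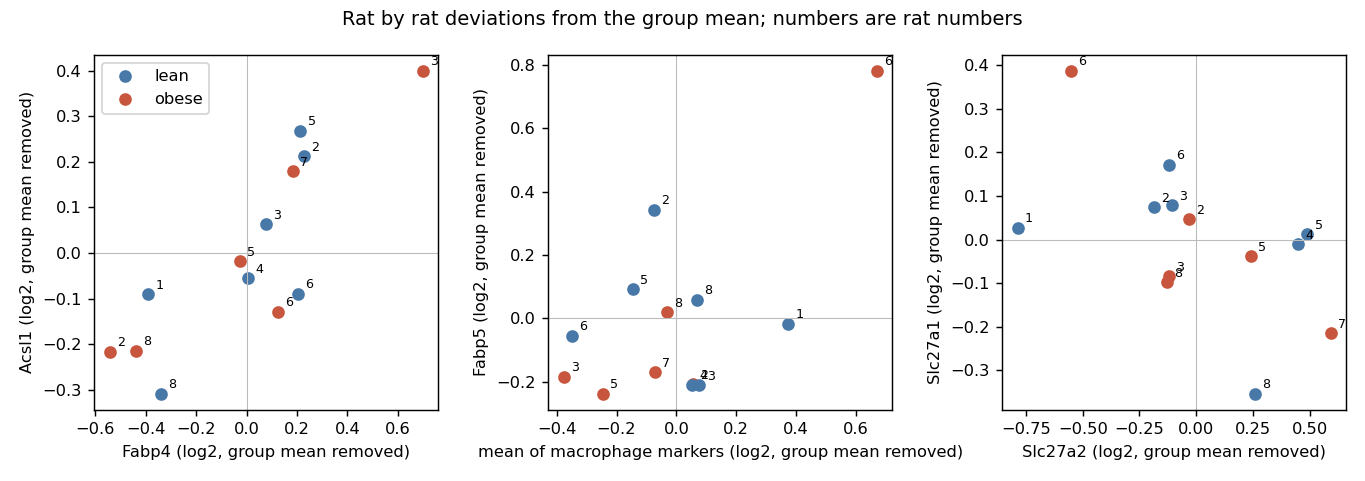
Deviation of each of 13 rats from its group mean on the log2 scale, for Acsl1 against Fabp4, Fabp5 against the mean of the macrophage markers, and Slc27a1 against Slc27a2; numbers are rat numbers. Obese rat 6 stands alone at the upper right of the middle panel, and the Fabp5 correlation of 0.615 there is -0.08 without it.

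Macrophage markers were higher in the same obese rats. The 22 measured markers of 25 listed had summed signals from 246515 to 492154 in the 6 obese and from 157191 to 239972 in the 7 lean rats, and that of obese rat 1 was 198480. All 22 lay above the filter and had positive log2 differences, beside 42.2% of probe sets. With 13 arrays 7 of them passed, beside 1.01% of probe sets, with a median of 0.655. With all 15 arrays 0 passed, 16 had an unadjusted limma p under 0.05, beside 15.6% of probe sets, and the median was 0.57. Those with the smallest p were Gpnmb at 2.07, Lgals3 at 0.90 and Laptm5 at 0.97 (limma adjusted p = 0.00326, 0.0199 and 0.0273). Obese rat 6 had the highest sum, as it had the highest Fabp3, Fabp5, Cd36, Slc27a1, Acsl4 and Acsl5. Within groups the mean of the list correlated with Fabp5 at 0.615, but at -0.08 without obese rat 6, and with Fabp3 at 0.63, or 0.33 without that rat. Acsl4 correlated with it at 0.615, or 0.489 without that rat, and Slc27a1 at 0.404, or -0.224. Slc27a2, Acsl1 and Fabp4 had -0.513, -0.455 and -0.413, and Cd36, Acsl5 and Acsl3 had 0.384, 0.385 and 0.097. Without obese rat 6 Cd36, Acsl5 and Acsl3 had -0.174, 0.129 and -0.137, and Slc27a2 and Fabp4 had -0.316 and -0.755. Acsl1 ran from -0.553 to -0.280 when 1 rat was left out. A change in the number of cells of a type and a change in RNA per cell (more or fewer cells, more or less RNA) cannot be told apart in whole tissue, and the part of macrophages in the differences was not tested.

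Muscle, brown fat and fat cell markers were read for Fabp3. Summed signals of the 13 measured striated muscle markers ran from 16259 to 20468 in obese and from 18430 to 23477 in lean rats. Only 5 of these markers passed the filter. Most of each sum was the Myh1 probe set, with means of 13597.6 in obese and 15314.2 in lean rats, so the sums mainly follow that probe set. Myoglobin (Mb) lay below it, and Ckm had a log2 difference of -0.0080 ± 0.19 (SE). The lowest p of the list belonged to Atp2a1, Myh1 and Casq1, at -0.365, -0.16 and -0.23, and none passed. Of 8 brown fat genes 2 passed the filter. Cidea, a lipid droplet protein also found in white fat, rose by 0.60 ± 0.11 (SE; limma adjusted p = 0.0203; 0.103 with all 15 arrays), Zic1 had -0.33, and Ucp1 lay below the filter with means of 283.8 in obese and 297.7 in lean rats. The adipocyte list had a median of 0.0088 over 15 genes, 8 of them positive and none passing. Its smallest p belonged to Lep at 0.79, Gpd1 at 0.52 and Thrsp at 0.33.

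Of the other cell types, endothelial markers had a median of 0.04 over 10 genes and mesothelial markers one of -0.32 over 8, none passing. Positive differences were found for 5 of the endothelial and 1 of the mesothelial genes. The endothelial genes with the smallest p were Eng, Esam and Pecam1, at 0.39, 0.31 and 0.18, and the mesothelial ones Bnc1, Upk1b and Krt19, at -0.55, -0.39 and -0.31. RNA integrity was read from Gapdh, whose 3 prime probe set gains on its 5 prime probe set in degraded RNA: their log2 ratio was 0.72 ± 0.27 (SD) over 6 obese and 1.04 ± 0.275 (SD) over 7 lean arrays (exact two-sided permutation p = 0.0606). It was 0.768 and 1.04 with all 15 arrays (exact two-sided permutation p = 0.0749). Within groups Fabp3 correlated with it at -0.575. With this ratio as a covariate Fabp5 alone of the members passed, and Fabp3 and Slc27a1 had log2 differences of 1.80 and 0.65 (limma adjusted p = 0.109 and 0.068).

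Other genes of the same families were mostly dim. Of 14 listed, 11 had a probe set and 4 passed the filter. With 13 arrays 0 passed the test, and 2 of the 4 had an unadjusted limma p under 0.05, beside 17.8% of all probe sets. Fabp1, the liver form, had a log2 difference of 1.225 ± 0.485 (SE; limma adjusted p = 0.206), and obese rat 7, at 7461.3, lay far above the other obese rats, whose highest was 1871.3. Slc27a4 (FATP4), a widely expressed transporter, went the other way at -0.38 ± 0.13 (SE; limma adjusted p = 0.154), with signals from 2311.6 to 3910.7 in the 6 obese and from 3326.3 to 4539.8 in the 7 lean rats. Slc27a5 and Slc27a3 had 0.13 and 0.06. Fabp2, Fabp6, Fabp7, Fabp12, Acsl6 and Acsbg1 lay below the filter.

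Among genes around these steps, from lipoprotein lipolysis to the carnitine shuttle, 27 of 29 measured passed the filter and 1 passed the test with 13 arrays, beside 1.01% of all probe sets, with a median of 0.05. Lipa, the acid lipase of the lysosome, rose by 0.835 ± 0.18 (SE; limma adjusted p = 0.0453; 0.108 with all 15 arrays), with obese rat 6 again highest at 15875.7 against 6082.3 to 7869.0 in the other 5. Cpt1a, which starts mitochondrial import of fatty acids, had 0.52 ± 0.12, the beta-oxidation enzyme Hadha 0.35 ± 0.09 and the carnitine carrier Slc25a20 0.47 ± 0.12 (SE; limma adjusted p = 0.0572, 0.0696 and 0.0696). The lowest p among negative genes belonged to the thioesterases Acot2 and Acot13 and to caveolin Cav1, at -0.22, -0.15 and -0.20 (limma adjusted p = 0.264, 0.466 and 0.483). PPAR receptors, their partners and coregulators had 12 of 14 genes above the filter, none passing, and a median of -0.07. Ppard, Ppargc1a and Rxrg had -0.28, -0.38 and -0.13, while Pparg and Rxra had 0.06 ± 0.14 and 0.06 ± 0.22 (SE).

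The genes most like each passing member within groups were found among 10504 genes over the 13 rats, with group means removed. The highest of so many correlations over so few rats would be large by selection alone. No test was made of them. Fabp3 was most like Rasa1, Pfdn4, Bbip1, Scyl2 and the class II gene RT1-Db1, with r from 0.87 to 0.88 and from 0.79 to 0.87 without obese rat 6. Fabp5 was most like Glrx, Naa20, Fdps, Selenoh and the macrophage marker Aif1, with r from 0.81 to 0.84, but without obese rat 6 these fell to between 0.21 and 0.68. Slc27a1 was most like Syk, Myo7a, Pik3cd, Pdk4 and Ctsz, with r from 0.84 to 0.88, and from 0.69 to 0.90 without that rat. The 5 values with all 15 arrays ran from 0.633 to 0.904 for Fabp3, from 0.609 to 0.788 for Fabp5 and from 0.753 to 0.883 for Slc27a1. Lean rat 8 was not left out of these correlations. Its deviations from the group mean were 1.59 for Fabp3 and -0.35 for Slc27a1, against 1.56 and 0.39 in obese rat 6. Of these 15 genes Pdk4, which switches off pyruvate dehydrogenase, and the lysosomal protease Ctsz also passed between groups, at 1.025 and 0.91 (limma adjusted p = 0.0203 and 0.037).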

How the data were processed

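Epididymal fat RNA of 15 rats was measured on Affymetrix RAE230_2 arrays, with a separate array for each rat, per the labels. The deposited intensity values are MAS5 signals on a linear scale, per the submitters' processing notes; settings are not given in the sources used here. They were used as deposited, since their 2% trimmed means already ranged only from 1500.34 to 1500.42. Array number limits the precision. Signals became log2(signal + 79.9), the constant being their 10th percentile, and 57 control probe sets were left out. Probe sets with a mean above the 40th percentile were kept, 18625 of 31042. The comparison of groups used limma 3.58.1 under R 4.3.3 (two-sided, Benjamini-Hochberg over all kept probe sets). The platform annotation named 1 gene for 20826 probe sets, of which 20758 matched a current Entrez ID, and several for 436. The test was checked with simulated signals of 18625 probe sets. With 13 arrays it recovered 28% of changes of 0.5 on the log2 scale and 80% of changes of 1. With 15 arrays these shares were 36% and 84%. The simulated signals were independent normal draws for each probe set and array, with no near-identical pair. The recovered shares therefore need not hold for the measured arrays, where that pair carries different labels.

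The members, the lists and the leaving out of the near-identical pair were chosen with earlier results of these data known. Named were the members, listed genes that passed or had the smallest p, and the 5 genes most like each passing member. The leave-out checks of the correlations were added after seeing the data. Plots were made using matplotlib 3.10.9 and Python 3.11.15.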

Additional observations from a re-analysis of the deposited data

Results flagged for a closer look

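In 3 of 40 combinations of a member, a group and a set of arrays, 1 rat stood apart from its group, as about 5% would by chance. Its gap to the nearest rat, divided by the group's whole range on the log2 scale, exceeded the 95% critical value of Dixon's test. Fabp5 in obese rat 6, at a signal of 55602.6 against 32745.5 for the next rat, gave 0.748 without obese rat 1 and lean rat 7. Slc27a1 in lean rat 8, at 1979.9 against 2531.7 for the next rat, gave 0.652 both with all 15 arrays and without that pair. Lean rat 8 also had the highest Fabp3 and Cd36 signals of the lean group.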

How the results depend on the processing

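With all 15 arrays 0 members passed. The count was 1, Fabp5, with the constant at the 30th percentile of signals, with the filter at the 60th percentile and with eBayes using trend and robust, and 3 without the near-identical pair. Leaving out 1 rat gave 0 to 3; the 3 came without obese rat 1, and leaving out lean rat 7 alone gave 0. Without the pair 3 passed, and leaving out 1 more rat gave 2 to 3. The count was 1 with the Gapdh ratio as a covariate, 2 without a filter and 2 with the filter at the 60th percentile, which removed Fabp3 from the test. Rat numbers name different rats in each group. Deviations of same-numbered rats correlated at -0.11 to 0.24. Differently numbered rats were not compared, so whether the numbers reflect a shared order was not tested. In the replicate block, a term for each number, obese rat 7 and lean rats 1 and 4 have no partner with 13 arrays. With the replicate block the count was 0 in both sets, and with 13 arrays Fabp5, Fabp3 and Slc27a1 then had 1.30, 2.38 and 0.60 (limma adjusted p = 0.134, 0.177 and 0.179). Over all probe sets, 189 passed with 13 arrays, and 389 under median centring, 334 with the filter at the 60th percentile, 309 with trend and robust, 124 under quantile normalization, 123 with a constant of 1, 46 without a filter, 14 with the Gapdh ratio and 3 with the replicate block.

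Fabp5, Fabp3, Cd36, Slc27a1 and Acsl3 kept a positive difference under every alternative run. The others lay near 0 and changed sign. With 15 arrays Fabp4 was 0.0564 under median centring, 0.0700 under quantile normalization and 0.1299 with the Gapdh ratio. Slc27a2 was 0.0904 under median centring, 0.0410 under quantile normalization, 0.0579 with the replicate block and 0.0587 with array weights. Acsl1 was -0.0510 with array weights, Acsl4 -0.0815 with the Gapdh ratio, and Acsl5 -0.0207 under quantile normalization and -0.0046 as the mean over probe sets. With 13 arrays Fabp4 was 0.0623, 0.0937 and 0.1613 under the same settings. Slc27a2 was 0.1121 under median centring, 0.0565 under quantile normalization, 0.0001 with the Gapdh ratio and 0.0458 with array weights. Acsl1 was -0.0548 with the replicate block and -0.0690 with array weights, Acsl4 -0.1200 with the Gapdh ratio, and Acsl5 -0.0205 under quantile normalization and -0.0083 as the mean over probe sets. Leaving out 1 rat gave, with 15 arrays, -0.157 to 0.0501 for Fabp4, -0.118 to 0.0728 for Slc27a2, -0.0424 to 0.0604 for Acsl1 and -0.0069 to 0.135 for Acsl4. With 13 arrays it gave -0.194 to 0.0548 for Fabp4, -0.135 to 0.1061 for Slc27a2, -0.0698 to 0.0548 for Acsl1 and -0.0142 to 0.157 for Acsl4. The cause of these changes was not tested. Median centring shifted the median of all probe sets by 0.1161 with 13 arrays and 0.1019 with 15.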
